A study of Rattus norvegicus with 36 samples.

Results

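The G2 and M phase genes are 42 genes whose products carry a dividing cell from the end of DNA replication through mitosis and cytokinesis. They were followed in the glands of 2 rat strains, Cop and F344, and were taken as the probe sets annotated with one of the 42 gene symbols and no other. Of the 42, 37 had such a probe set (53 probe sets in all, of 31099 on the array), and 36 of 11504 genes tested were members. Anln and Ckap2 appeared only on probe sets that also name a second gene, and Tpx2, Ndc80 and Ncapg had no probe set under these names. Cenpa, the histone H3 variant that marks centromeres, was measured but lay between 3.44 and 4.44 log2 units, above the 40th percentile on 0 of the 36 arrays, and was not tested.

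The rats were 55 days old when they received N-nitrosomethylurea (NMU) or, as control, saline vehicle, and glands were taken 6 h, 1 d or 30 d after treatment. NMU is an alkylating carcinogen that methylates DNA, F344 is a strain susceptible to mammary tumours after NMU, and Cop (Copenhagen) is a resistant strain. The 4 arms were Cop with NMU, Cop control, F344 with NMU and F344 control, with 3 replicate arrays for each arm and time. The labels call the replicates biological but do not say that each array is a separate animal, so the p-values measure the spread between arrays. No source used here gives the dose of NMU. The glands are whole tissue, in which fewer dividing cells and less RNA per dividing cell cannot be told apart.

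Progress into mitosis is driven by Cdk1 with cyclins A2, B1 and B2. Polo-like and Aurora kinases build the spindle, the spindle checkpoint (Bub1, Bub1b, Ttk) holds the cell until every chromosome is attached, and Cdc20 with Ube2c then lets the anaphase-promoting complex destroy the cyclins. Transcripts of these genes are low in resting cells and rise together in late S phase and G2, a timing known to run through CCAAT boxes, bound by the factor NF-Y, and through a nearby element called the CHR, bound by the MuvB proteins together with B-Myb or FoxM1. In the mammary gland of a young rat, cells divide in the growing ducts and end buds, and stromal and immune cells can divide too.

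Promoters of 32 of the 37 measured members were held in the RefSeq table used here (rat build GRCr8), as 250 bases before and 50 after the gene's start. CCAAT or its reverse complement ATTGG stood in 27 of the 32 (84.4%), against 38.4% of 19005 protein-coding promoters of the same length. The CHR letters TTTGAA or their reverse complement TTCAAA stood in 23 (71.9%), against 17% of all promoters. Both stood in 21 (65.6%), against 7.04% of all. The last letter of TTTGAA can be the first of ATTGG. The E2F core letters TTCCCGC or their reverse complement GCGGGAA stood in 3 (9.38%), against 5.6% of all. Among the promoters of 30 measured genes of DNA replication, CCAAT stood in 66.7%, TTTGAA in 6.67%, both in 3.33% and the E2F core letters in 43.3%. Aurka, Bub1 and Kif2c held neither CCAAT nor TTTGAA in this window. Such letters describe the window and do not show that a factor binds.

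The 250 bases before the start are printed for 4 members. Of these, 3 passed the test in 4 of the 6 comparisons of NMU with control (Cdk1, Top2a and Stmn1). The other is Cks2, which with Stmn1 passed the test of the strain difference at 1 d. Neither passed that test with replicate pairs as a block. The printed bases are read 5′ to 3′ along the gene. Capitals mark CCAAT and TTTGAA on either strand. They lie at chr20:19265043-19265292 on the plus strand, chr10:84473094-84473343 and chr17:13727520-13727769 on the minus strand, and chr5:151964929-151965178 on the plus strand.
Cdk1: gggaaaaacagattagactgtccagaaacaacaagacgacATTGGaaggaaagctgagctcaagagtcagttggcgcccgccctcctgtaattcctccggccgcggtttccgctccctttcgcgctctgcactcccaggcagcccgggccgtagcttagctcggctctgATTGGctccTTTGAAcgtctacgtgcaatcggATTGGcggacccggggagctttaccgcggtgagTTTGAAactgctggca
Top2a: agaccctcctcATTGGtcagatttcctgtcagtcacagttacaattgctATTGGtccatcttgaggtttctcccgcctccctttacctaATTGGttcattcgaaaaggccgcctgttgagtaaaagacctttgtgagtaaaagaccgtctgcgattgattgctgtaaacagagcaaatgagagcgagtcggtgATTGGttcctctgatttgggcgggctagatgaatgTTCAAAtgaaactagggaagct
Cks2: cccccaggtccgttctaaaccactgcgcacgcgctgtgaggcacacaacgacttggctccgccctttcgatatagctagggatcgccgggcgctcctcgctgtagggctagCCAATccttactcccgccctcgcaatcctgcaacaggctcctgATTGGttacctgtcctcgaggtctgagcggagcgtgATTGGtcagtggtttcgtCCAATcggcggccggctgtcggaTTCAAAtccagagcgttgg
Stmn1: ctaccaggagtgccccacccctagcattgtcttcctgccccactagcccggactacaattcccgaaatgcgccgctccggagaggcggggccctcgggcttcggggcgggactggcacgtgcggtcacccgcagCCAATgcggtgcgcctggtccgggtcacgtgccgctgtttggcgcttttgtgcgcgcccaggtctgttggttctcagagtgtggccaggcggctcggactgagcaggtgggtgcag
Counted from the gene's start, a CHR match began at -16 in Cdk1, -22 in Top2a and -19 in Cks2, with the nearest CCAAT match at -49 in Cdk1, -57 in Top2a and -42 in Cks2. Stmn1 held a CCAAT match at -116 and no TTTGAA.

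The deposited values are log2 expression values per probe set, and array medians lay between 5.656 and 5.766. Most measured markers of mammary tissue passed the filter on dim signals, 21 of 22 for luminal epithelium, 11 of 11 for basal epithelium and 17 of 17 for adipocytes. Skeletal muscle markers varied widely between arrays of the same group, with scores (mean deviation of 25 genes, log2) between -3.47 and 2.62. F344 control replicate 2 at 30 d stood apart from replicates 1 and 3 in the member genes, and Cop NMU replicate 1 at 30 d stood apart from replicates 2 and 3 in lymphocyte markers. The nearest replicate pair of the series was F344 control replicates 1 and 2 at 1 d (root mean square difference 0.163, next 0.232).

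As a summary of level, a score was taken for each array as the mean deviation of the 37 measured genes from their own means. Among Cop glands it was 0.72, 1.27 and 1.18 with NMU at 6 h, against -0.12, 0.11 and 0.13 in controls. At 1 d it was -0.64, -0.63 and -0.53 with NMU, against 0.62, 0.80 and 0.20 in controls. At 30 d it was -0.54, -0.42 and -0.17 with NMU, against -0.04, 0.63 and 0.81 in controls. The 2 Cop arms did not overlap at any time, with NMU above control at 6 h and below it at 1 d and 30 d.

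Among F344 glands the score was -0.81, -0.61 and -0.69 with NMU at 6 h, against -0.45, -0.37 and -0.71 in controls. At 1 d it was 0.05, -0.19 and -0.35 with NMU, against -0.37, -0.36 and -0.67 in controls. At 30 d it was -0.54, -0.03 and -0.39 with NMU, against 1.88, -0.12 and 1.36 in controls. The arms overlapped at 6 h and at 30 d, where a single control array lay among the NMU arrays.

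**Figure D1:**
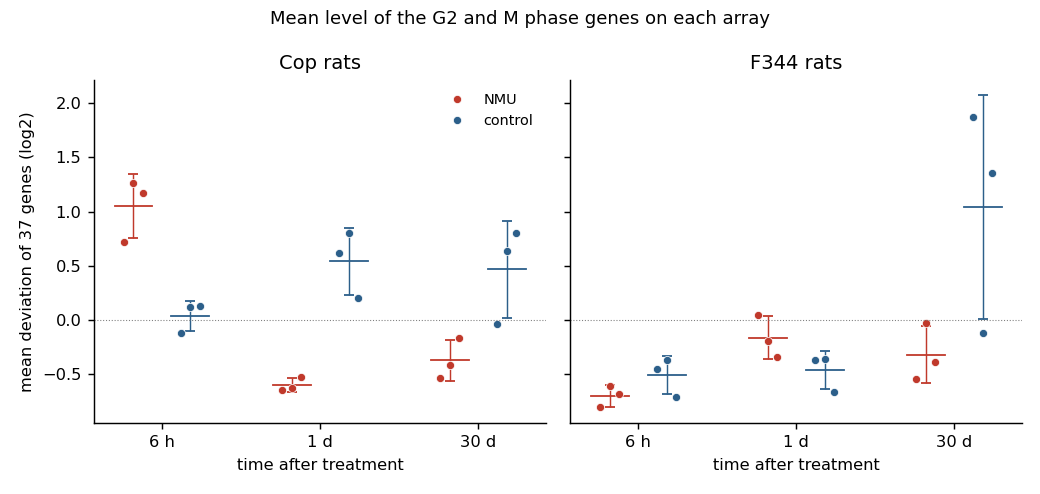
Score of the 37 measured G2 and M phase genes (mean deviation from each gene's mean, log2) on each of the 36 arrays by time after treatment, with NMU in red left of control in blue. Points are arrays, and lines with bars are means with SD (n = 3); Cop NMU glands lie between 0.72 and 1.27 at 6 h and between -0.64 and -0.53 at 1 d.

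In Cop glands 6 h after NMU, many of the members rose and none fell. Of 36 members tested, 17 passed the test as higher and 0 as lower, where 4.68% of all genes tested were called higher and 3.29% lower (limma, Benjamini-Hochberg adjusted p under 0.05 over all probe sets). All 36 estimates were above 0, with a median of 1.03, against -0.0001 over all genes. In 29 members every NMU array lay above every control array, as did 17.8% of all genes.

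Cdk1, the kinase that drives mitosis, read 7.91, 8.53 and 8.69 log2 units on NMU arrays, against 6.35, 6.68 and 6.74 on control arrays. Every NMU array lay more than a log2 unit above every control array, and the difference was 1.79 (SE 0.494, 3.45-fold, limma adjusted p = 0.0263). Mki67, which coats mitotic chromosomes and is the common marker of proliferation, read 7.34, 8.26 and 8.03 with NMU, against 5.72, 6.55 and 6.30 in controls. It rose by 1.69, and Ccna2, the cyclin of S phase and G2, by 1.70. Top2a, the topoisomerase that untangles sister chromatids, read 7.33, 8.25 and 7.99 with NMU, against 5.74, 6.47 and 6.42 in controls, and rose by 1.64 (adjusted p = 0.010). The spindle proteins Prc1, which bundles microtubules between the separating chromosomes, and Nusap1 rose by 1.72 and 1.71.

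By role, the kinases and checkpoint genes gave 5 calls of 8, with Aurkb, the kinase of the chromosomal passenger complex, at 1.54 (SE 0.304, adjusted p = 0.00164), Bub1 at 1.48, Pbk at 1.48, Ttk at 1.27 and Bub1b at 0.90. Bub1b and Ttk were dim, above the 40th percentile of the array on 4 and 6 of the 36 arrays. Of other members called here, Hmmr was above it on 5 arrays, Kif23 and Pbk on 10 each and Ccna2 on 11. Aurkb was the member that passed whichever of the 6 arrays was left out. Spindle motors and microtubule proteins gave 7 calls of 11, among them the midzone motor Kif23 at 1.47, the chromosome-arm motor Kif22 at 1.33, Kif11 at 0.93 and Stmn1, which destabilizes microtubules, at 0.84. The kinetochore gave 1 of 3 (Nuf2 at 1.26) and chromosome structure 2 of 4 (Mki67 and Top2a).

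The B-type cyclins did not follow Ccna2 past the threshold. Ccnb1 read 6.63, 6.54 and 6.73 with NMU, against 6.35, 6.20 and 6.16 in controls, a difference of 0.40. Its arms did not overlap, but the gap between them was small. Ccnb2 differed by 1.34 (limma adjusted p = 0.0592). Cdc20, activator of the anaphase-promoting complex, read 6.89, 7.44 and 7.54 with NMU, against 6.64, 6.73 and 6.89 in controls, a difference of 0.54. Plk1, the kinase of mitotic entry and spindle assembly, differed by 0.40 and also did not pass.

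Fewer members passed when some arrays were left out in turn: 2, 11 and 6 without Cop control replicates 1, 2 and 3, and 1 and 4 without NMU replicates 2 and 3. The median stayed between 0.94 and 1.23. T and NK cell markers were lower in the same glands: 11 of 19 passed, with scores of -0.08, -1.18 and -1.12 with NMU, against 0.86, 0.47 and 0.83 in controls. B cell scores were -0.01, -0.54 and -0.56 with NMU, against 0.55, 0.38 and 0.71 in controls, with 0 of 10 markers called. Once the fit held each array's lymphocyte score, 1 member passed and the median was 0.67. Muscle scores were -0.55, 0.59 and 0.65 with NMU, against -1.0, -2.89 and -0.93 in controls, and with the muscle score in the fit 16 members passed. Adipocyte scores were -0.62, -0.29 and -0.30 with NMU, against 0.08, -0.08 and 0.08 in controls. Macrophage scores were 0.18, 0.21 and 0.33, against -0.25, 0.03 and -0.18. Basal epithelium scores were 0.23, -0.05 and -0.05, against 0.48, 0.26 and 0.33. The adipocyte, macrophage and basal scores did not overlap between the arms, and their part in the result was not tested.

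One day after NMU, the same strain showed the opposite. Of the 36 members, 11 passed as lower and 0 as higher, where 0.452% of all genes were called lower and 0.6% higher, and all 36 estimates were below 0 with a median of -1.06 (0.004 over all genes). In 32 members every NMU array lay below every control array, as did 8.18% of all genes.

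Mki67 read 4.63, 4.87 and 4.77 with NMU, against 7.34, 7.62 and 6.80 in controls. The arms lay almost 2 log2 units apart at their nearest arrays, and the difference was -2.50 (SE 0.475, 5.63-fold, limma adjusted p = 0.00789). The NMU arrays of Mki67 lay below 4.944, the lowest 40th percentile of any array, so its fold was read against dim signals. Racgap1, a gene of cytokinesis, read 4.86, 5.11 and 4.40 with NMU, against 7.39, 7.59 and 6.43 in controls, and fell by 2.35 on the log2 scale. Its NMU values of 4.86 and 4.40 also lay below 4.944. Cdk1 read 5.14, 5.33 and 5.75 with NMU, against 8.0, 8.11 and 6.48 in controls, and fell by 2.12. In both genes control replicate 3 was the lowest control array.

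The cyclins and Cdk1 partners gave 5 calls of 6. Ccnb1 read 5.03, 4.83 and 5.0 with NMU, against 6.58, 6.98 and 6.23 in controls, and fell by 1.65. Ccnb2 fell by 1.89, Ccna2 by 1.86 and Cks2, a small protein that binds Cdk1, by 1.72. Cks1b, its close relative, differed by -0.16 and its arms overlapped. Top2a fell by 1.70, Nusap1 by 1.93, Kif22 by 1.47 and Stmn1 by 1.14. None of the 8 kinases and checkpoint genes passed, although in all 8 every NMU array lay below every control array, with differences from -1.10 to -0.44. Birc5 (survivin), a partner of Aurkb, was nearest to the threshold among them with -0.83 (limma adjusted p = 0.058).

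With NMU and control arrays of the same replicate number treated as pairs, 3 members passed at 1 d in Cop. None passed without Cop control replicate 1, control replicate 2 or NMU replicate 1, and 2 and 4 passed without NMU replicates 2 and 3. The median stayed between -1.30 and -0.89. T and NK cell scores were -0.13, -0.18 and 0.28 with NMU, against 0.15, 0.27 and 1.02 in controls, with 0 of 19 markers called. Holding the lymphocyte score, 18 members passed. Basal epithelium scores were -0.42, -0.30 and 0.03 with NMU, against 0.19, 0.10 and 0.07 in controls, with 0 of 11 markers called. Macrophage scores were 0.15, 0.32 and 0.18 with NMU, against -0.27, 0.04 and -0.02 in controls, with 1 of 14 markers called higher. Endothelium scores were 0.01, 0.08 and 0.11 with NMU, against -0.33, -0.06 and -0.01 in controls, with 0 of 11 markers called. Adipocyte scores were -0.09, -0.17 and -0.13 with NMU, against -0.27, -0.23 and -0.27 in controls. The basal epithelium, macrophage, endothelium and adipocyte scores did not overlap between the arms, and their part in the result was not tested.

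**Figure D2:**
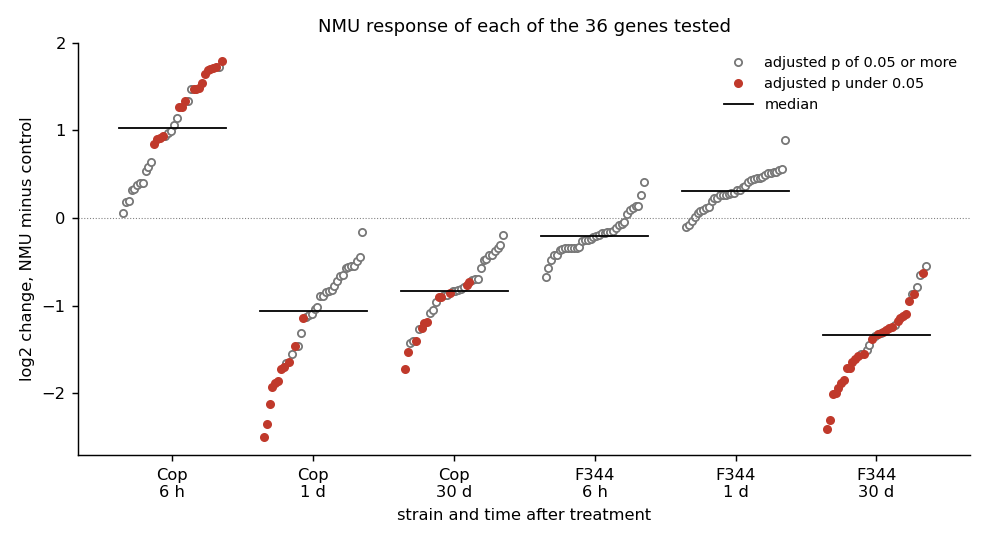
Log2 change (NMU minus control) of each of the 36 members tested, sorted within each strain and time after treatment, with filled points for an adjusted p under 0.05 and a bar at the median. Filled points lie above 0 in Cop at 6 h (17) and below 0 in Cop at 1 d (11), Cop at 30 d (11) and F344 at 30 d (26), and there are none in F344 at 6 h and 1 d.

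The change of the Cop response between 6 h and 1 d was tested directly. Of the 36 members, 27 passed as lower, where 2.16% of all genes were called lower and 0.878% higher, and all 36 estimates were below 0 with a median of -2.20. The largest were Mki67 at -4.19 (SE 0.672, limma adjusted p = 0.000494), Cdk1 at -3.91, Racgap1 at -3.82, Nusap1 at -3.65, Ccna2 at -3.56 and Ect2, also of cytokinesis, at -3.38. Of these, the first 5 passed whichever of the 12 arrays was left out, and Ect2 passed in 9 of 12. Ccna2 and Ect2 were dim on most arrays, above the 40th percentile on 11 and 10 of the 36. The count was 17 without Cop NMU replicate 2 at 6 h, or without Cop control replicate 2 at 1 d.

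The 2 times share no arrays. Of the 17 members that rose at 6 h, 7 fell at 1 d (41.2% of the first list and 63.6% of the second): Ccna2, Cdk1, Kif22, Mki67, Nusap1, Stmn1 and Top2a. The base for this overlap is 17 calls at 6 h and 11 at 1 d among 36 members. Ccnb1, Ccnb2, Cks2 and Racgap1 passed at 1 d and not at 6 h, where all 4 had estimates above 0 (Cks2 1.0 with no overlap of its arms, Racgap1 1.47). The checkpoint kinases Bub1, Bub1b and Ttk and the passenger kinase Aurkb passed at 6 h and not at 1 d, and each was lower at 1 d by its estimate.

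In F344 glands neither early time gave a call. At 6 h, 0 of 36 members passed in either direction by limma, and 0 had an unadjusted p under 0.05, where 0.495% of all genes were called higher and 0.243% lower. The median was -0.21 (0.073 over all genes) and 29 estimates were below 0. Cdk1 read 5.17, 5.38 and 5.35 with NMU, against 5.75, 5.78 and 5.41 in controls. Top2a read 4.97, 5.27 and 5.26 with NMU, against 5.87, 6.00 and 5.36 in controls. In both, every NMU array lay below every control array by a narrow margin, as in 13 members and 7.99% of all genes. The smallest p-values were those of Birc5 (-0.34), Ccnb2 (-0.68) and Plk1 (-0.35), with limma adjusted p between 0.486 and 0.512.

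At 1 d in F344, 0 of 36 members passed and 0 had an unadjusted p under 0.05, where 1.08% of all genes were called higher and 0.148% lower. The median was 0.30 (0.007 over all genes), with 33 estimates above 0. In 13 members every NMU array lay above every control array, as did 11.2% of all genes. Cdk1 read 6.61, 6.59 and 6.17 with NMU, against 6.16, 6.28 and 5.37 in controls, and the arms overlapped. Stmn1 read 9.41, 9.29 and 9.07 with NMU, against 8.85, 8.78 and 8.74 in controls, a difference of 0.47 with no overlap. The smallest p-values were those of the condensin subunit Smc2 (0.89), the spindle protein Tacc3 (0.41) and Stmn1, with limma adjusted p between 0.578 and 0.602. The dimmer probe set of Tacc3 read -0.05. The change of the F344 response between 6 h and 1 d had a median of 0.50 with 0 members called by limma and 0 at an unadjusted p under 0.05, where 0.374% of all genes were called higher and 0.0695% lower.

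**Figure D3:**
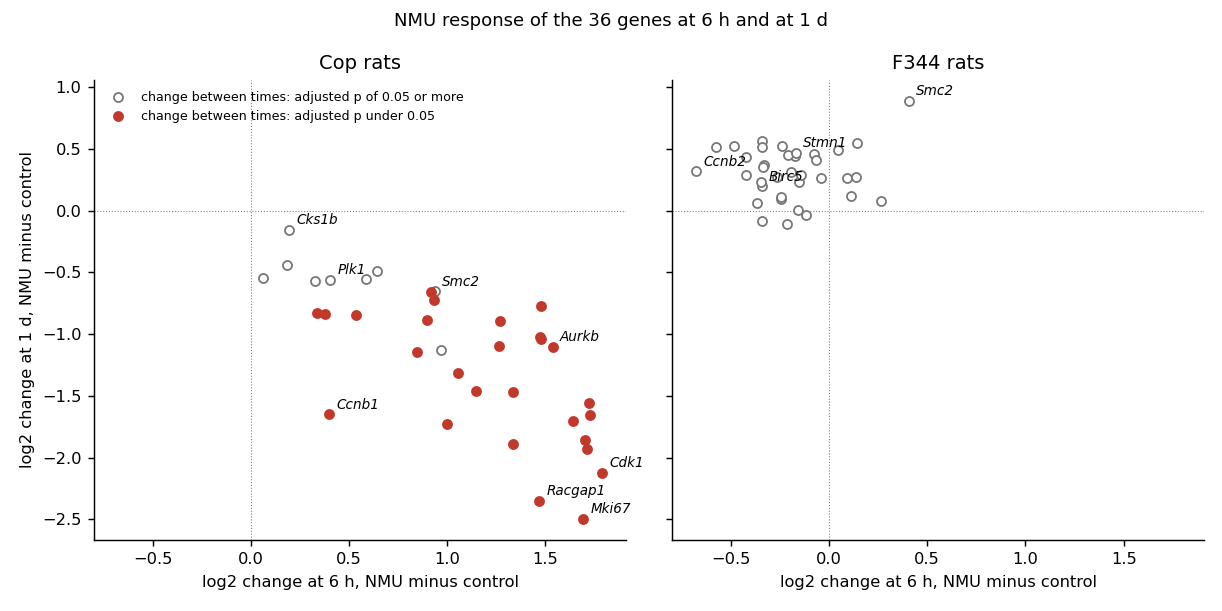
NMU response (log2 change) of the 36 members at 1 d against 6 h in Cop (left) and F344 (right), filled where the change between the times had an adjusted p under 0.05. All 36 members in Cop lie above 0 at 6 h and below 0 at 1 d, and 27 are filled; in F344 26 members lie below 0 at 6 h and above 0 at 1 d, and none is filled.

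The strain difference was then tested as the Cop response minus the F344 response. At 6 h, 34 of 36 estimates were above 0 with a median of 1.28 (-0.08 over all genes), and 24 had an unadjusted p under 0.05. Aurkb passed, and no other member did, where 0.861% of all genes were called higher and 0.252% lower. Aurkb read 6.51, 7.07 and 6.92 in Cop with NMU, against 5.09, 5.24 and 5.56 in Cop controls, and 4.23, 4.57 and 4.32 in F344 with NMU, against 4.56, 4.89 and 4.40 in F344 controls. Every F344 value of Aurkb here lay below 4.944, the lowest 40th percentile of any array, so its F344 response was read from dim signals. The difference of its responses was 1.78 (SE 0.43, limma adjusted p = 0.0374), and it passed in 2 of the 12 cases with an array left out. The 2 cases were those without Cop control replicate 3 and without Cop NMU replicate 1, and the count of members was 0 without any of the other 10. It was also 0 with replicate pairs as a block, and 2 without Cop NMU replicate 1.

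At 1 d, all 36 differences were below 0 with a median of -1.46, 30 had an unadjusted p under 0.05, and 2 members passed, where 0.269% of all genes were called lower and 0.0174% higher. Cks2 read 5.98, 6.10 and 6.88 in Cop with NMU, against 7.92, 8.40 and 7.81 in Cop controls, and 7.48, 7.14 and 7.12 in F344 with NMU, against 6.66, 6.97 and 6.46 in F344 controls. The arms were apart in both strains and in opposite directions, and the difference was -2.27 (SE 0.5, limma adjusted p = 0.0486). Stmn1 differed by -1.61 (adjusted p = 0.0459). The count was 1 without Cop control replicate 3 or Cop NMU replicate 3 and 0 without any of the other 10 arrays. It was 0 with replicate pairs as a block.

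At 30 d some members were lower with NMU than in controls of the same time in each strain, 26 in F344 and 11 in Cop. In F344, 26 of 36 passed as lower and 0 as higher, where 3.65% of all genes were called lower and 0.687% higher. All 36 estimates were below 0, with a median of -1.34 (-0.05 over all genes). All 6 cyclins and Cdk1 partners passed, with Ccna2 at -2.40 (SE 0.435, 5.30-fold, limma adjusted p = 0.00428), Cdk1 at -2.0 and Ccnb2 at -1.89. So did both genes of cytokinesis (Ect2 at -2.31 and Racgap1 at -1.72), both partners of the anaphase-promoting complex (Ube2c at -1.58 and Cdc20 at -1.18), 8 of 11 spindle genes (Nusap1 at -1.99 the largest), 3 of 4 of chromosome structure (Mki67 at -1.94, Top2a at -1.85 and Smc4 at -0.86), 4 of 8 kinases and checkpoint genes, and 1 of 3 of the kinetochore.

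The values behind these calls were uneven. Cdk1 read 5.68, 6.64 and 5.77 with NMU, against 9.09, 6.35 and 8.66 in controls, so that control replicate 2 lay among the NMU arrays. Ccna2 read 3.34, 4.21 and 3.87 with NMU, against 7.47, 4.78 and 6.39 in controls, and its arms did not overlap. Its NMU arrays and control replicate 2 lay below 4.944, the lowest 40th percentile of any array, so its fold was read against dim signals. Of the called members, Bub1b, Hmmr, Smc4 and Ttk lay above the 40th percentile on only 4, 5, 6 and 6 of the 36 arrays. Each had its highest group mean in these controls, so the filter may have passed them through the group they were compared with. In 11 members every NMU array lay below every control array, as did 15.1% of all genes. The SD of Cdk1 among the F344 controls at 30 d was 1.47, against 0.534 among the NMU arrays, and the fit uses a spread pooled over all 12 groups. Of the members, 35 passed without control replicate 2, none without control replicate 1 or NMU replicate 1, 5 without control replicate 3 and 17 without NMU replicate 2.

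Skeletal muscle scores in the same glands were 1.26, 0.83 and -0.45 with NMU, against -3.47, -0.52 and -2.71 in controls, with 0 of 25 markers called and 24 of 25 higher by estimate. T and NK cell scores were -0.65, -0.50 and 0.18 with NMU, against -0.09, 1.05 and 0.41 in controls. Endothelium scores were 0.08, 0.08 and 0.09 with NMU, against -0.35, -0.18 and -0.46 in controls, with 2 of 11 markers called higher. Adipocyte scores were 0.03, -0.25 and 0.20 with NMU, against -0.45, -0.49 and -0.34 in controls, with 1 of 17 called higher. Neither of these overlapped between the arms, and their part in the result was not tested. Holding the muscle score 0 members passed and the median was -1.19, and holding the lymphocyte score 33 passed. Fitted on the compared arrays alone, 0 passed.

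In Cop at 30 d, 11 of 36 members passed as lower and 0 as higher, where 6.36% of all genes were called lower and 4.83% higher. All 36 estimates were below 0 with a median of -0.83 (-0.03 over all genes). In 23 members every NMU array lay below every control array, as did 10.5% of all genes. Cks2 read 6.66, 6.27 and 6.33 with NMU, against 7.47, 8.43 and 8.53 in controls, and fell by 1.72 (SE 0.353, 3.30-fold, limma adjusted p = 0.00386). Cks1b fell by 0.77. These 2 Cdk-binding proteins passed whichever array was left out. Cdk1 read 5.72, 6.20 and 6.32 with NMU, against 6.63, 8.28 and 7.92 in controls, and fell by 1.53 (adjusted p = 0.0478). Its arms did not overlap, and control replicate 1 was nearest to the NMU arrays. Ccnb2 fell by 1.40, Top2a by 1.25, Ube2c by 1.197 and Ccnb1 by 1.18. Cdc20, Stmn1, Tacc3 and Birc5 also passed, with falls between 0.73 and 0.91. Birc5 read 4.16, 4.25 and 5.04 with NMU, against 4.99, 5.28 and 5.39 in controls, so that its arms overlapped.

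Stmn1 in Cop at 30 d read 9.31, 9.29 and 9.34 with NMU, against 9.68, 10.43 and 10.54 in controls. Every NMU array lay below every control array. T and NK cell scores in these glands were 0.66, -1.82 and -1.67 with NMU, against 0.90, 0.36 and 0.65 in controls. Of the markers, 10 of 19 for T and NK cells and 5 of 10 for B cells were called lower, 4 of 21 for luminal epithelium lower, and 9 of 11 for endothelium higher. The count of members was 19 holding the lymphocyte score and 4 holding the luminal score, which was 0.50, 0.04 and -1.20 with NMU, against 0.34, 0.22 and 0.67 in controls. It was 3 and 2 without control replicates 2 and 3, and 4, 2 and 3 without NMU replicates 1, 2 and 3.

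The 2 strains share no arrays at 30 d. Of the 11 members called lower in Cop, 10 were also called lower in F344 (90.9% of the Cop list and 38.5% of the F344 list), and Birc5 was the exception. In F344, 26 of the 36 members were called lower, so most of a list drawn blindly from the members would be shared too. The difference between the responses gave 0 calls of 36 by limma, where 0% of all genes were called in either direction, with a median of 0.51 and 2 members at an unadjusted p under 0.05 (Aurka at 0.84 and Bub1b at 0.96).

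**Figure D4:**
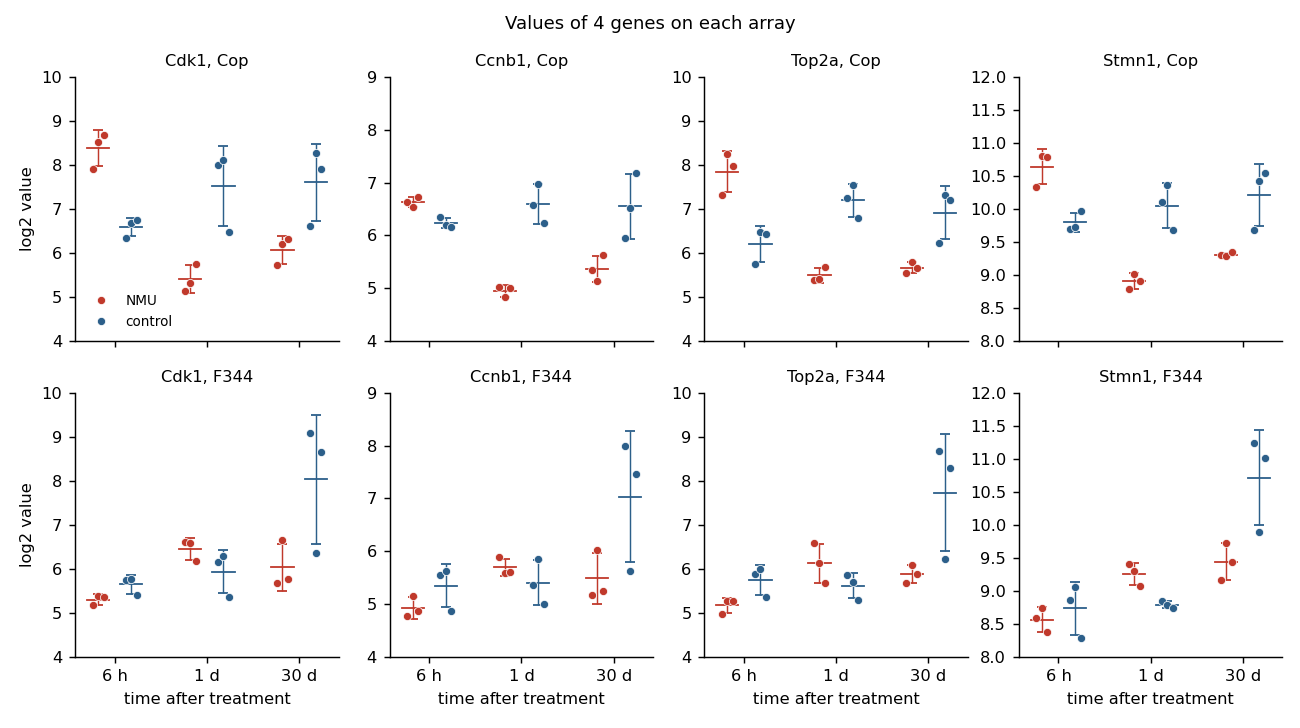
Log2 values of Cdk1, Ccnb1, Top2a and Stmn1 on each array by time after treatment, in Cop (top) and F344 (bottom), with NMU in red left of control in blue and lines with bars for means with SD (n = 3). In Cop the NMU arrays of all 4 genes lie above control at 6 h and below control at 1 d and 30 d, and in F344 at 30 d control replicate 2 lies far below the other control arrays.

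The controls themselves moved, and each NMU comparison uses them. Among F344 controls, 34 of 36 members were higher at 30 d than at the earlier times and 0 lower, where 16.4% of all genes were called higher and 15.4% lower. The median was 1.5, and the largest were Nusap1 at 2.56 (SE 0.403, limma adjusted p = 2.72e-05), Mki67 at 2.40, Ect2 at 2.32, Ccnb2 at 2.30, Racgap1 at 2.24 and Cdk1 at 2.24. The count lay between 29 and 36 with an array left out. Tissue markers moved in the same arrays. Luminal epithelium scores were 0.82, 0.97 and 0.66 at 30 d, against -0.72 to -0.29 at the earlier times, with 19 of 21 markers called higher, and 8 of 11 basal epithelium markers were called higher. Of skeletal muscle markers 23 of 25 were called lower and 1 higher, with scores of -3.47, -0.52 and -2.71 at 30 d, against 1.52 to 2.62 earlier, and 11 of 17 adipocyte markers were called lower. Their part in the result was not tested. In Cop controls the same comparison gave 0 calls by limma, 0 members at an unadjusted p under 0.05, and a median of 0.19, where 1.95% of all genes were called higher and 6.53% lower. Rats at 30 d were also older, so time after saline and age cannot be told apart.

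The control levels of the strains also differed early. At 1 d, 21 of 36 members were higher in Cop controls than in F344 controls, where 6.8% of all genes were called higher and 10.4% lower. Mki67 read 7.34, 7.62 and 6.80 in Cop, against 5.32, 5.55 and 5.05 in F344, a difference of 1.95 (SE 0.475, limma adjusted p = 0.00556), Ccna2 differed by 1.70 and Racgap1 by 1.62. The count was 12 and 8 without F344 replicates 1 and 3, and 8 and 3 without Cop replicates 1 and 2. In the same arrays, skeletal muscle scores were -1.16, -0.80 and -2.48 in Cop, against 1.87, 1.82 and 2.60 in F344, with 16 of 25 markers called lower and 1 higher. Adipocyte markers were called lower for 13 of 17, basal epithelium markers higher for 4 of 11 and luminal epithelium markers higher for 1 of 21. Their part in the result was not tested. These Cop control arrays are also those of the NMU comparison at 1 d, where Mki67 fell to 4.63, 4.87 and 4.77. At 6 h, Stmn1 (1.07) and Tacc3 (0.85) passed as higher in Cop, where 13.1% of all genes were called higher and 8.19% lower, and the median was 0.54. At 30 d the median was -0.55 with 0 calls by limma (1.07% of all genes higher and 1.6% lower) and 10 members at an unadjusted p under 0.05. Without F344 control replicate 2, 29 members passed as lower in Cop, in a fit whose share of all genes called is not given here. Between 1 d and 6 h no member passed in the controls of either strain (limma, 1 member in F344 and 3 in Cop at an unadjusted p under 0.05), with medians of 0.06 in F344 and 0.46 in Cop. Of all genes, 0.0522% were called higher and 0% lower in F344, and 0.174% higher and 0.435% lower in Cop.

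Across the 36 arrays the members varied together. The correlation of each with the mean of the others ran from 0.152 for Cenpa to 0.985 for Top2a, with a median of 0.949 and 26 of 37 above 0.9. These points share the array and its makeup of cells, so the values are a description. Within groups, after removing group means, the median was 0.892. Smc4 and Smc2, core subunits of condensin, had 0.386 and 0.568, Cks1b 0.686 and Aurka, the kinase of spindle poles, 0.759. The highest group mean was in F344 controls at 30 d for 19 members and in Cop with NMU at 6 h for 16. The lowest was in F344 with NMU at 6 h for 22. Among 11468 other genes, those nearest to the members' mean were Cdca3 (0.972), Spc25, Melk, Kif20b, Ska1, Pttg1, Sgo1, Spc24, Knstrn and Cdkn3 (0.945).

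**Figure D5:**
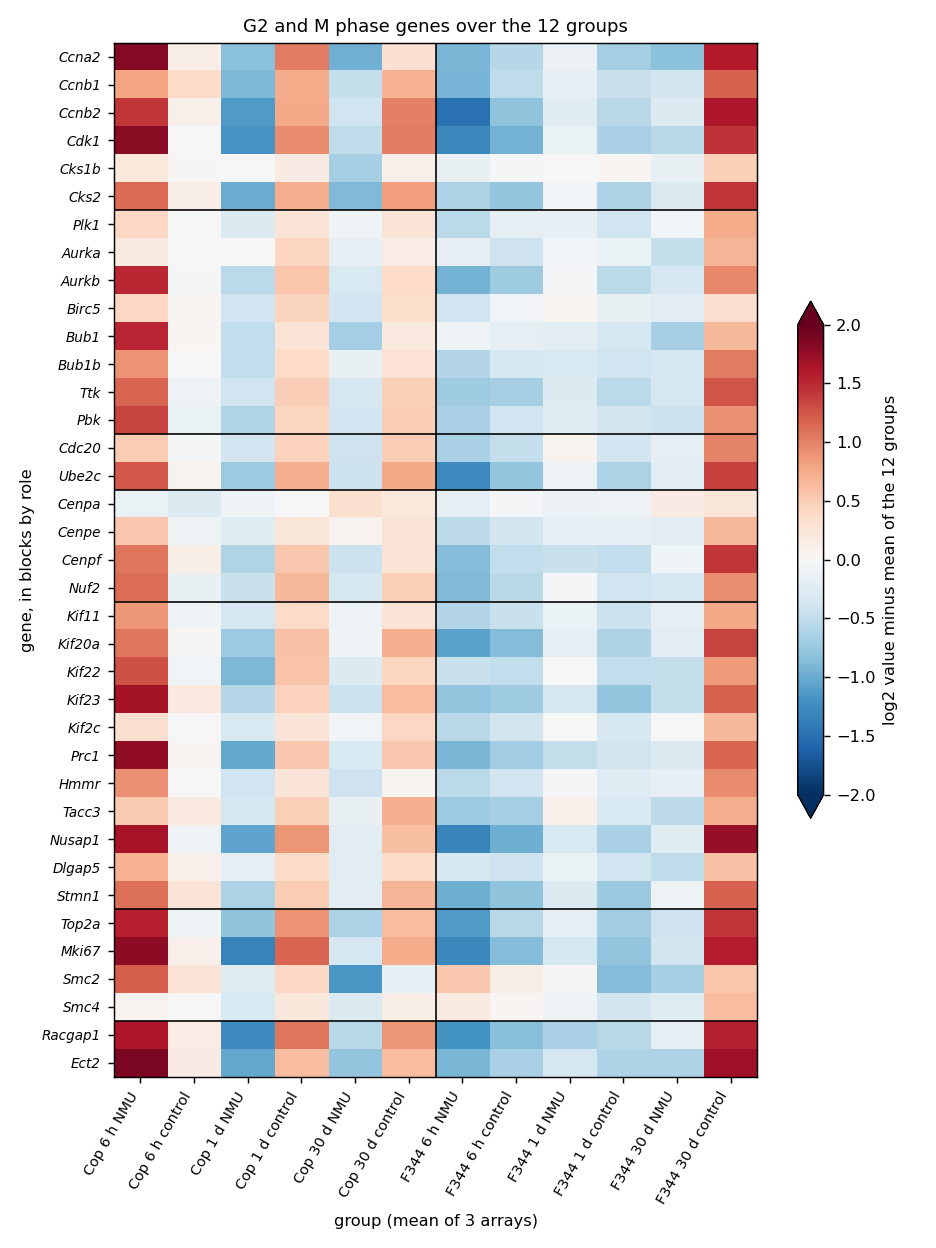
Group means of the 37 measured members (rows, in blocks by role) over the 12 groups (columns, NMU left of control), as log2 value minus the gene's mean over the groups, from blue (low) to red (high). Most rows are red in Cop with NMU at 6 h and in F344 controls at 30 d, as the highest group mean is in the second of these for 19 members and in the first for 16.

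Counted over the comparisons, Cdk1, Stmn1 and Top2a passed in 4 of the 6 NMU comparisons, and 7 members in 3 (Ccna2, Ccnb1, Ccnb2, Cks2, Kif22, Mki67 and Nusap1). Cenpe, Cenpf, Kif20a, Kif2c, Plk1 and Smc2 passed in none. Plk1 came nearest in F344 at 30 d, where it read 6.08, 6.11 and 6.16 with NMU, against 7.44, 6.05 and 7.24 in controls, with control replicate 2 below the NMU arrays (-0.79, limma adjusted p = 0.0519). Of the 9 genes with several tested probe sets, the sets gave the same call in 43 of 54 pairs of gene and NMU comparison. Opposite signs with a call occurred once, in Tacc3: its brighter set fell by 0.86 in Cop at 30 d, while the other read 0.08. Without a call, the Tacc3 sets also differed in sign in F344 at 1 d (0.41 and -0.05) and in Cop at 6 h (0.34 and -0.10). In F344 at 30 d the brighter set of Tacc3 fell by 1.24, while the other, at -0.12, did not pass. The second set of Top2a did not pass in Cop at 1 d (-0.79) or 30 d (-0.51), that of Kif23 did not in F344 at 30 d (-0.31) or Cop at 6 h (0.66), and that of Nusap1 did not in Cop at 6 h (1.10) or 1 d (-1.67). The second sets of Cdc20 and Cks1b likewise did not pass in Cop at 30 d (-0.65 and -0.44), nor did that of Cks1b in F344 at 30 d (-0.47).

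A further list of G2 and M genes outside the 42 gave 22 of 44 tested genes higher in Cop at 6 h (median 0.83), where 4.68% of all genes were, among them the separase Espl1 at 1.23 and Shcbp1 at 1.66. It gave 1 lower in Cop at 1 d (Spc25, a kinetochore protein, at -1.27), 6 lower in Cop at 30 d and 19 lower in F344 at 30 d, with medians of -0.70, -0.54 and -0.89, where 0.452%, 6.36% and 3.65% of all genes were called lower. Genes of S phase gave 11 of 31 higher in Cop at 6 h (median 0.52), where 4.68% of all genes were called higher, with the thymidylate synthase Tyms at 1.28 and Uhrf1, which maintains DNA methylation, at 1.30. They gave 8 lower in Cop at 1 d (median -0.60), where 0.452% of all genes were called lower, with the replication licensing factor Cdt1 at -1.33 and the helicase subunit Mcm6 at -1.19. At 30 d, 17 were lower in Cop and 18 in F344 (medians -0.59 and -0.67), where 6.36% of all genes in Cop and 3.65% in F344 were called lower. The replication clamp Pcna fell by 0.96 in Cop and by 0.97 in F344.

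Among regulators, Foxm1 rose by 0.83 (limma adjusted p = 0.00788) and Mybl2 (B-Myb) by 0.69 in Cop at 6 h. Foxm1 read 5.91, 6.58 and 6.33 with NMU, against 5.70, 5.22 and 5.42 in controls. Neither passed in the other 5 NMU comparisons, and E2f1 and the G1 cyclin Ccnd1 passed in none. In the change of the Cop response between 6 h and 1 d, Foxm1 (-1.21), Mybl2 (-1.21) and E2f1 (-1.25) passed as lower. Cdkn1a (p21), the Cdk inhibitor induced by p53, rose in both strains at 6 h, by 1.33 in Cop and by 1.45 in F344. It read 8.61, 8.22 and 8.55 in Cop with NMU, against 7.26, 7.16 and 6.97 in Cop controls, and 8.56, 9.09 and 10.17 in F344 with NMU, against 7.78, 7.31 and 8.36 in F344 controls. The arms were apart in both strains, and at later times its differences, between 0.48 and 0.79, did not pass.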

How the data were processed

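Expression in mammary glands was read on 36 Affymetrix rat arrays, with RNA prepared on Qiagen columns and labelled as biotinylated cRNA per the labels' protocols. The deposited values are log2 expression values per probe set made by the authors. The submitters' processing notes name GCOS, and no source used here says how signals were summarized or normalized. They were used as deposited.

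By the platform annotation, 20832 of 31099 probe sets carry 1 gene symbol, 436 several and 9831 none, and 57 are controls. Tests covered the 20749 probe sets with signals past the 40th percentile of an array on 3 or more arrays. By their brightest probe set, members near this limit were Bub1b (4 of 36 arrays), Hmmr and Cenpe (5 each), and Ttk and Smc4 (6 each). Where a gene had several, its value is that of the probe set with the highest mean. Levels of different probe sets were not compared.

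The model, fitted with limma 3.58.1 (R 4.3.3, trend and robust empirical Bayes), held 12 group means over the 36 arrays, with two-sided tests and Benjamini-Hochberg adjustment in each of 18 comparisons. Calls are at an adjusted p under 0.05. The number of arrays limits the precision.

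Replicate numbers were tested as pairs. Same-numbered NMU and control arrays deviated together in every Cop pair at the early times, with correlations of 0.114, 0.142 and 0.435 at 6 h and of 0.202, 0.424 and 0.315 at 1 d. In the other 4 cases not every pair exceeded 0.1. Early F344 pairs were mixed, with -0.01, 0.35 and 0.51 at 6 h and 0.25, -0.08 and 0.25 at 1 d. Alternatives were quantile normalization, filters, other moderation, covariates, blocks, the compared arrays alone and each array left out.

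The members and lists were chosen with earlier results of these data known. The rule for naming genes took a panel of 14 members for values by array, the 6 called members of largest rise or fall in a comparison, all called members by role, the 3 of smallest p where none was called, members whose probe sets differ, up to 4 called genes of each other list, 5 regulators and the 10 most correlated genes. Part of what it names is printed. Members listed as called in no comparison, and those called at 1 time and not another, were named after their values were seen.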

Additional observations from a re-analysis of the deposited data

Results flagged for a closer look

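By limma's test of the difference itself, the NMU response differed between strains for 1 of 36 members at 6 h (Aurkb, Cop minus F344 1.78), where 0.861% of all genes were called higher, and for 2 of 36 at 1 d (Cks2 -2.27 and Stmn1 -1.61), where 0.269% were called lower. Both counts were 0 with replicate pairs as a block. In Cop the response also differed between 1 d and 6 h, with 27 members called, and with Mki67 at -4.19, Cdk1 at -3.91, Racgap1 at -3.82, Nusap1 at -3.65, Ccna2 at -3.56 and Ect2 at -3.38. Groups of 3 arrays are too small for a test of outlying arrays, and none was made.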

How the results depend on the processing

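Of 170 counts of called members under other settings, not including those with an array left out, 141 were within 1.5 times the main count. Many of these 141 were 0 in comparisons whose main count was also 0. Shares of all genes called are printed for the main fit alone. A count under another setting, or with an array left out, therefore has no such share beside it. No named gene changed sign, and 1 median of the members did (F344 controls, 1 d against 6 h, 0.06 in full and -0.002 without control replicate 2 at 1 d). Of 1213 values of named genes, 219 lost their call and 6 gained it.

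With replicate pairs as a block the count was 3 in Cop at 1 d (11 without the block), and 0 for the strain difference at 6 h and at 1 d. With the replicate number as a block over all arrays it was 7 in Cop at 30 d and 0 for the strain difference at 6 h and at 1 d. The block moved no other count by over 1.5 times. Fitted on the compared arrays alone, the count was 0 in F344 at 30 d, 20 in Cop at 1 d, 0 in Cop at 30 d, 19 for the strain difference at 6 h, 14 for it at 1 d, and 19 for Cop against F344 controls at 6 h. Without the filter it was 7 in Cop at 1 d, 6 in Cop at 30 d and 0 for the strain difference at 1 d. Quantile normalization gave 0 for the strain difference at 6 h, 1 at 1 d, and 1 for Cop against F344 controls at 30 d. Without the trend and robust options the strain difference at 6 h gave 2.

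Holding the muscle score, the count was 0 in F344 at 30 d, 2 for the strain difference at 6 h and 0 at 1 d. With the lymphocyte score it was 1 in Cop at 6 h, 18 in Cop at 1 d, 19 in Cop at 30 d, 0 for the strain difference at 6 h and 14 at 1 d. With the luminal score it was 4 in Cop at 30 d and 0 for the strain difference at 6 h. The cause of these changes was not tested.

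Leaving out 1 array at a time, counts ran from 0 to 35 in F344 at 30 d, 1 to 18 in Cop at 6 h, 0 to 11 in Cop at 1 d, 2 to 14 in Cop at 30 d, 0 to 2 for the strain difference at 6 h, 0 to 1 at 1 d and 0 to 1 at 30 d, 17 to 26 for the change of the Cop response, 3 to 18 for Cop against F344 controls at 1 d and 0 to 29 at 30 d. Cenpa lay below the 40th percentile on every array, so its signal limits what can be read from it.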
